A study of Homo sapiens with 30 samples.

Results

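The S5A response was compared with the wild-type CTD response over 8 of the 30 libraries of the series, 2 per group, taken by their labels. All 4 groups were labelled A549, a line from a human lung adenocarcinoma, and carried an RPB1 degron, so that the cell's own RPB1 could be degraded with the ligand dTAGV-1. Treated S5A cells had been given 2 µg/mL doxycycline for 24 h, which induces an RPB1 complement labelled S5A, and 100 nM dTAGV-1 for 12 h. Untreated S5A cells were the same line without either agent. Treated WT cells had received both agents on the same schedule, the induced complement being wild-type RPB1, and untreated WT cells received neither. Doxycycline and dTAGV-1 were therefore given in both lines, and neither agent can be told apart from the exchange of RPB1 within a line. Fly S2 cells had been added at 10% to all samples. The measure throughout is the difference in change: the log2 change of treated over untreated S5A cells, minus the log2 change of treated over untreated WT cells. A negative difference means that the S5A change was the lower one. The comparison asks which expression changes seen with the S5A complement differ from those seen with an induced wild-type complement.

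POLR2A encodes RPB1, the catalytic core subunit of RNA polymerase II. The tail of RPB1, the C-terminal domain or CTD, is a run of heptads in which serine 5 is phosphorylated by the TFIIH kinase as the polymerase leaves the promoter, a mark that recruits the mRNA capping enzymes and other early factors, while serine 2 is phosphorylated later in elongation. The name S5A stands for serine 5 replaced by alanine. How many repeats of the complement carry the change is not stated in the labels.

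The longest POLR2A transcript in GENCODE release 29 (6751 bases, chromosome 17, plus strand, GRCh38) encodes 21 heptads of the exact consensus in 1 reading frame. The first run of 3 such heptads is shown because serine 5 of such repeats is the residue that the label S5A names. Capitals mark the codon of serine 5, for which this transcript uses TCT in 10, TCA in 7 and TCC in 4 of the 21 heptads.
Heptad 1: tatagtcccacaTCAcccagc
Heptad 2: tattcgccaacgTCAcccagc
Heptad 3: tactcaccgaccTCTcccagc

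The 8 libraries held 11356689 to 15588432 counts. Replicates differed by more than counting noise in all 4 groups, with a chi-square per degree of freedom of 1.43 in treated S5A, 1.98 in untreated S5A, 25.9 in treated WT and 2.36 in untreated WT cells. Replicate 2 of treated WT cells stood apart: between transcripts of 40% and 60% GC content its log2 level shifted by 0.52 relative to the mean of all libraries, against -0.29 in replicate 1. Nothing in the labels says that the 2 libraries of a group came from separate cultures. The p-values measure a spread between libraries of a group, pooled over all 30 libraries of the series. That spread may be technical, and the wider spread of the 2 treated WT libraries enters it only in part. Several A549 markers were missing. KRT7, KRT19 and TFF1 were at 0 in all 8 libraries, 12 of 24 lung and A549 markers stayed under 1 CPM (counts scaled to a common library size) in each, and CDKN2A, which A549 is known to lack, was at 125 to 129 CPM in treated S5A and 115 to 122 CPM in untreated S5A cells. In treated and untreated WT cells it was at 97.6 to 151 CPM and 111 to 118 CPM. The lines are therefore called by their RPB1 labels below.

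POLR2A, which takes reads from both the cell's own gene and the induced complement, rose in both lines with edgeR. It had 1004 and 1075 CPM in treated S5A cells, against 379 and 419.7 CPM in untreated S5A cells, and 521 and 1015 CPM in treated WT cells, against 309 and 297 CPM in untreated WT cells. The log2 change was 1.38 ± 0.26 (SE, adjusted p = 0.000128) in S5A and 1.34 ± 0.26 (adjusted p = 0.00296) in WT cells, so the difference was 0.04 ± 0.36 (adjusted p = 0.982). The 2 treated WT libraries lay far apart, and the sign of the difference turned in 3 of 8 fits that left out 1 library, down to -0.36 without replicate 1 of treated WT cells, and with both other scalings described below (-0.49 and -0.75). In the authors' deposited DESeq2 table the WT rise of POLR2A was not called (log2 change 1.23, adjusted p = 0.637). Its S5A rise was called there, at 0.47 (adjusted p = 1.71e-06). These reads do not show how much of either protein was present.

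Of 19982 genes tested with edgeR's quasi-likelihood test, 3630 (18.2%) differed in change between the lines at a Benjamini-Hochberg adjusted p under 0.05. A gene past this threshold is called higher or lower, and all adjusted p-values below are from this test unless another tool is named. The difference was higher in 1170 genes (5.86%) and lower in 2460 (12.3%), and at least 2-fold in 692 (3.46%) and 1145 (5.73%) of them. In the called genes, all 4 pairs of a treated minus an untreated S5A library lay beyond all 4 such WT pairs, which was also so, called or not, in 23.2% of tested genes on the higher and 26.7% on the lower side. The S5A line itself changed in 10027 genes (50.2%), 4743 rising (23.7%) and 5284 falling (26.4%). The WT line changed in 1018 genes (5.09%), 571 rising (2.86%) and 447 falling (2.24%), or in 496 when the spread was estimated from the 8 libraries alone. The count of 3630 fell to 2329 without replicate 2 of untreated WT cells and to 2403 without replicate 2 of treated S5A cells. Before treatment 460 genes (2.3%) differed between the lines, and after treatment 8061 (40.3%) did. Across the tested genes the median absolute log2 change was 0.57 in S5A and 0.23 in WT cells. As a description, the 2 changes correlated over genes (Pearson 0.63, Spearman 0.57), with no library in common. Genes within a library are not independent replicates.

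**Figure D1:**
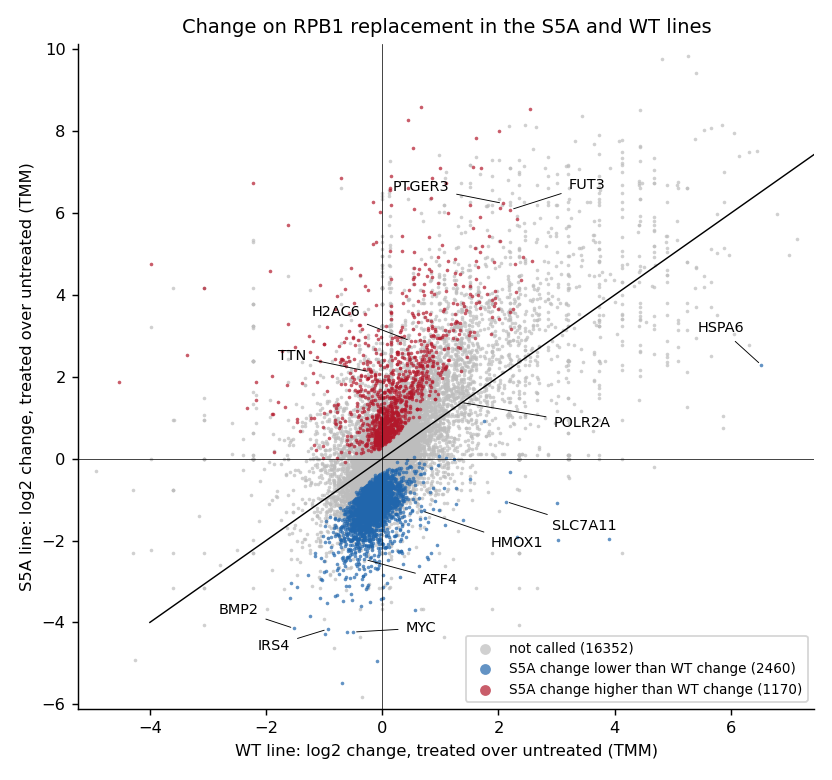
Each point is 1 of 19982 tested genes, with its log2 change in the WT line on the x axis and in the S5A line on the y axis (treated over untreated, 2 libraries per group, TMM scaling). Red points are the 1170 genes with a higher and blue points the 2460 genes with a lower S5A change, the line marks equal change, and MYC, IRS4 and BMP2 lie near -4 in S5A but above -2 in WT.

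These values are relative to the bulk of genes, because TMM scaling (edgeR's trimmed mean) sets the typical gene to no change. The median difference of all tested genes was -0.04 under TMM. It was -0.55 when libraries were scaled by the 13 mitochondrially encoded mRNAs, and -0.75 with the authors' own library factors, as solved from their deposited base means. The calls were then 375 higher and 6952 lower under mitochondrial scaling, and 278 higher and 8240 lower with the authors' factors. With those factors, treated libraries held 49.7% of the untreated total in S5A cells (range 49.2% to 50.2%) and 84.3% in WT cells (range 63.2% to 108.7%). In the authors' deposited tables, at their adjusted p under 0.05, 12835 genes had changed in S5A cells (977 up and 11858 down) and 21 in WT cells (15 up and 6 down). Within a bulk library, fewer cells and less RNA per cell cannot be told apart. Each value below is relative to the bulk. Both other scalings lower most differences, so small positive differences under TMM can turn negative. Under either of them no list described below had more higher members than under TMM, and nearly all had more lower ones. Some lists below have 0 calls in a direction for the difference under TMM. Of such a list, at most 2 members reached an unadjusted p under 0.05 in that direction, and DESeq2 called at most 1. Of the calls, 32.2% were higher under TMM, 5.12% under mitochondrial scaling and 3.26% under the authors' factors, against 42.5% with DESeq2 (1426 higher, 1931 lower) and 43.2% among the 11503 genes that averaged 5 CPM or more (1256 higher, 1653 lower).

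**Figure D2:**
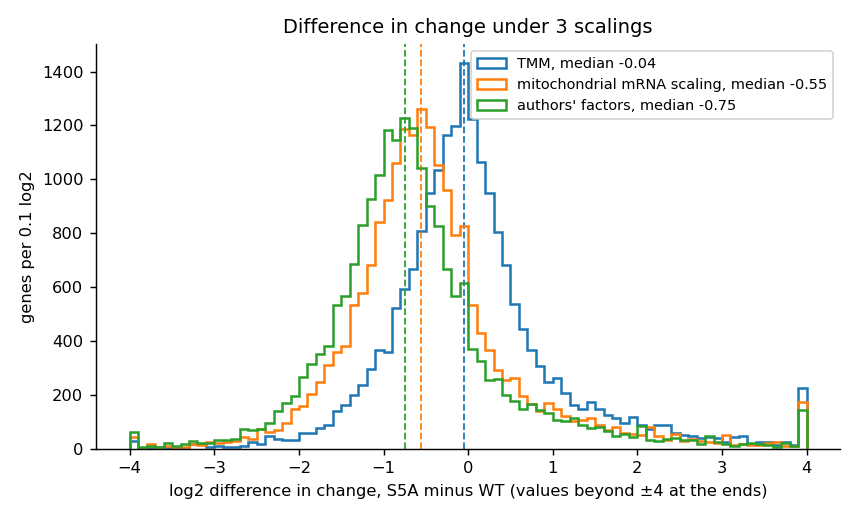
Number of genes (y axis, per 0.1 log2) by log2 difference in change, S5A minus WT (x axis), under TMM, mitochondrial mRNA scaling and the authors' factors. Dashed lines are the medians of -0.04, -0.55 and -0.75: the distributions under both other scalings lie to the left of that under TMM.

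The most strongly lower genes included regulators of growth and of cell identity. MYC (ENSG00000136997), a transcription factor of cell growth, had 13.5 and 14.1 CPM in treated S5A cells, against 261 and 259 CPM in untreated S5A cells. In treated WT cells it had 167 and 204 CPM, against 264 and 261 CPM in untreated WT cells. It thus fell in both lines, by 4.24 ± 0.15 on the log2 scale in S5A and by 0.50 ± 0.12 in WT. The difference was -3.73 ± 0.19 (edgeR, adjusted p = 4.61e-11). The authors' deposited DESeq2 table did not call the WT fall of MYC (adjusted p = 0.999). IRS4, which encodes an adaptor of insulin receptor signalling and lies on chromosome X (108732482 to 108736409, minus strand, GRCh38), had 50.2 and 54.1 CPM in treated S5A cells, against 945 and 928 CPM in untreated S5A cells. In treated WT cells IRS4 had 844 and 662 CPM, against 1397 and 1493 CPM in untreated WT cells. The treated S5A libraries were far below all other libraries for both genes, and the difference for IRS4 was -3.23 ± 0.18 (adjusted p = 2.46e-10). IRS4 had also differed between the lines before treatment, by -0.63.

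BMP2 (chromosome 20, 6767664 to 6780280, plus strand), a secreted ligand of the bone morphogenetic protein pathway, had 6.14 and 7.01 CPM in treated S5A cells, against 121 and 113 CPM in untreated S5A cells. In treated WT cells it had 45.6 and 55.7 CPM, against 149 and 141 CPM in untreated WT cells, a difference of -2.63 ± 0.18 (adjusted p = 4.59e-09). BMP2 therefore fell in WT cells as well, by 1.52, and more steeply in S5A cells, by 4.15. SNAI2, a zinc-finger repressor of epithelial genes, differed by -2.58 ± 0.23, and LRATD2 by -2.60 ± 0.17. WNT10B, a Wnt ligand, differed by -2.88 ± 0.33, FJX1 by -2.80 ± 0.29, and SLC6A9, a glycine transporter, by -3.19 ± 0.41. In these last 3 genes the treated S5A libraries held 1.53 to 2.63 CPM. PPCDC, an enzyme of coenzyme A synthesis, differed by -2.56 ± 0.23 and was at 3.07 CPM in both treated S5A libraries. RAB4A-AS1 (-2.77 ± 0.31) and MILIP (-2.54 ± 0.45) are noncoding genes whose reads are uncertain, since it is not known whether the counting used strand.

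**Figure D3:**
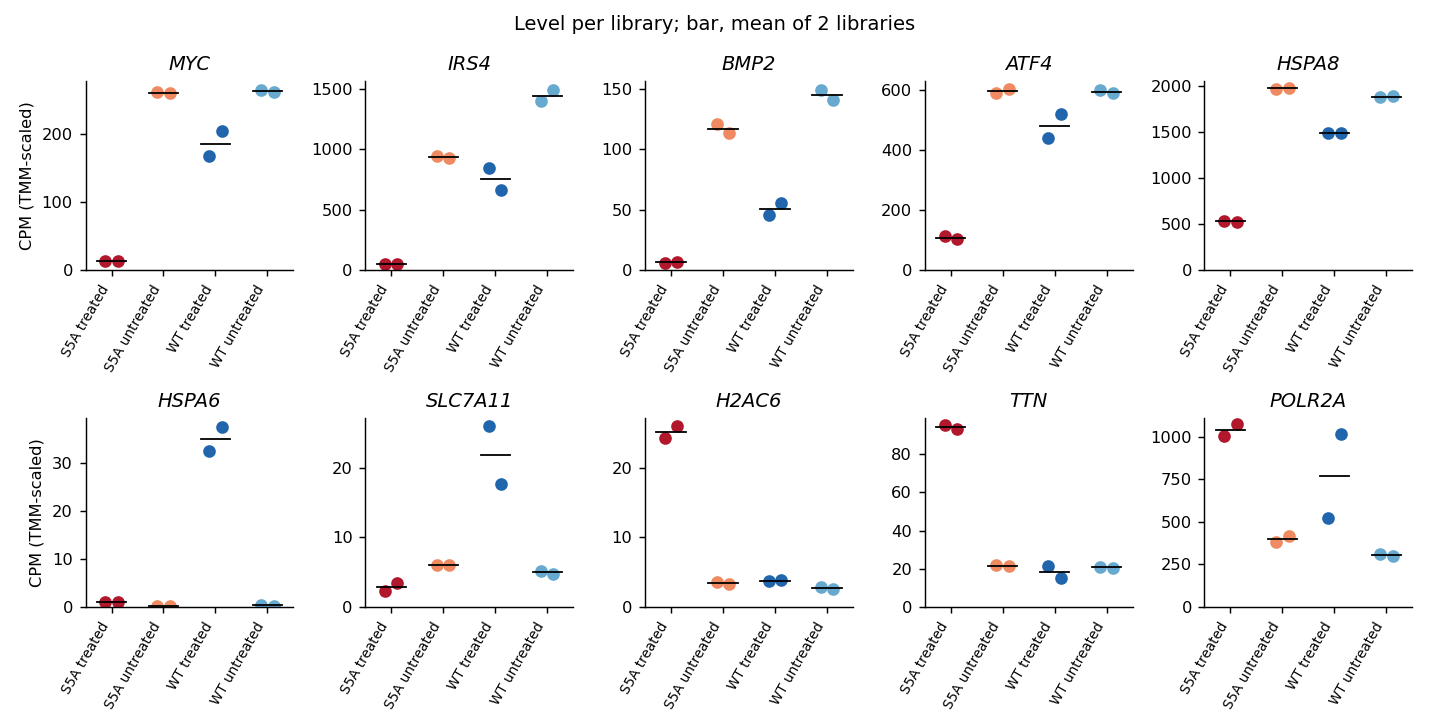
CPM (y axis, from 0, TMM-scaled) of 10 genes in each library of treated S5A, untreated S5A, treated WT and untreated WT cells, with bars at the mean of 2 libraries. MYC, IRS4, BMP2, ATF4 and HSPA8 are lowest in treated S5A cells, H2AC6 and TTN highest there, HSPA6 and SLC7A11 highest in treated WT cells, and the treated WT libraries of POLR2A differ by 521 against 1015 CPM.

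Heat shock genes encode chaperones whose transcription is released from paused polymerase by the factor HSF1. Of 25 tested genes of the heat shock and chaperone list, 6 were lower and 0 higher (12.3% and 5.86% of all tested genes), with a median difference of -0.12 against -0.04 for all genes. HSPA6 (chromosome 1, 161524540 to 161526910, plus strand, 1 exon), an inducible chaperone, had 1.08 and 1.10 CPM in treated S5A cells and 0.258 and 0.163 CPM in untreated S5A cells. It had 32.5 and 37.5 CPM in treated WT cells and 0.450 and 0.285 CPM in untreated WT cells, with both treated WT libraries far above all others. HSPA6 rose in both lines with edgeR, but in S5A only from 4 and 2 counts to 13 and 15. The authors' deposited DESeq2 table did not call its S5A change (log2 change 1.45, adjusted p = 0.304). The difference was -4.24 ± 0.98 (adjusted p = 0.00453), a call that rests on few reads in the untreated libraries and was lost without replicate 1 of untreated S5A cells (adjusted p = 0.128). HSPA8, the constitutive relative, had 537 and 527 CPM in treated S5A cells, against 1975 and 1984 CPM in untreated S5A cells. In treated WT cells it had 1494 and 1490.2 CPM, against 1886 and 1889 CPM in untreated WT cells, a difference of -1.56 ± 0.10. HSPA1B differed by -2.21 ± 0.13 and DNAJB1, a co-chaperone, by -1.55 ± 0.15, and neither passed the test in WT cells (adjusted p = 0.22 and 0.434). HSPA1B was already higher in untreated S5A than in untreated WT cells, by 0.56. HSPA1A, at 0.498 and 0.511 CPM in treated S5A cells, is a near-identical copy of HSPA1B, so its difference of -3.16 ± 0.65 is uncertain, as is that of HSPA6.

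The 250 bases before the start of HSPA6 and HSPA1B are given as the promoters of chaperone genes named above. They are RefSeq sequences of GRCh38.p14, printed in the direction of the gene, with GAANNTTC or TTCNNGAA in capitals, the paired units to which HSF1 binds, both of which read the same on either strand.
HSPA6, chr1:161524290-161524539, plus strand: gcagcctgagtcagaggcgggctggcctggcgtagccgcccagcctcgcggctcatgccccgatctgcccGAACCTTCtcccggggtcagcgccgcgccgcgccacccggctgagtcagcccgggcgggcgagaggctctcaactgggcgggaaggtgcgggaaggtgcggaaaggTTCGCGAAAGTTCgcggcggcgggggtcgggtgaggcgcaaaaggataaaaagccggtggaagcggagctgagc
HSPA1B, chr6:31827488-31827737, plus strand: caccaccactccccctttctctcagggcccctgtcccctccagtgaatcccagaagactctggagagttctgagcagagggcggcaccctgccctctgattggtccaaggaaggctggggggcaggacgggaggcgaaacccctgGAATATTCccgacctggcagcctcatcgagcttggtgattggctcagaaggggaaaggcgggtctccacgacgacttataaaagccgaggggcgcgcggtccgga

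HSPA6 held 2 matches of GAANNTTC and 1 of TTCNNGAA, which overlaps 1 of those 2, and HSPA1B held 1 match of GAANNTTC. Of 13203 tested genes with a promoter in the table, 8.91% held either motif, as did 8.88% of the 1915 lower and 8.92% of the 729 higher genes. The shares lay close together, and their differences were not tested.

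Genes driven by ATF4 in the integrated stress response serve amino acid uptake and protein synthesis under stress. Of 31 tested members 13 were lower and 0 higher (12.3% and 5.86% of all tested genes), with a median of -0.65. ATF4 itself had 112 and 104 CPM in treated S5A cells, against 588 and 604 CPM in untreated S5A cells, and 439 and 519.7 CPM in treated WT cells, against 598 and 588 CPM in untreated WT cells. Its difference was -2.15 ± 0.13 (adjusted p = 6.96e-10). The amino acid transporter SLC7A1 differed by -1.21 ± 0.11, the secreted glycoprotein STC2 by -1.62 ± 0.14, the mTOR inhibitor DDIT4 by -1.57 ± 0.29 and the alanyl-tRNA synthetase AARS1 by -0.85 ± 0.14. STC2 had differed between the untreated lines by -0.38. None of these 4 passed the test in WT cells (adjusted p from 0.122 to 0.606), and ATF4 did not either (adjusted p = 0.0588). Other members did: over the list, 5 rose and 0 fell in WT cells (2.86% and 2.24% of all tested genes). In S5A cells 2 rose and 16 fell (23.7% and 26.4% of all tested genes). The median change was 0.16 in WT and -0.49 in S5A cells. SLC7A11, described below, is a member of this list. The median of the list was -0.53 after correction for GC content and -0.51 without replicate 2 of treated WT cells.

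Only 5 genes averaging 5 CPM or more were called in both lines in opposite directions, and in all 5 S5A fell while WT rose. These opposite calls rest on the TMM fit of 30 libraries. In the authors' deposited table the WT log2 change of SLC7A11 was 1.89 (adjusted p = 0.00137), whereas those of HMOX1 (0.52), TANC2 (0.22), AJUBA (0.21) and POU3F3 (0.47) all had an adjusted p of 0.999. SLC7A11 (chromosome 4, 138164097 to 138242349, minus strand), the cystine and glutamate exchanger, had 2.33 and 3.43 CPM in treated S5A cells, against 6.005 and 6.014 CPM in untreated S5A cells. It had 26.0 and 17.6 CPM in treated WT cells, against 5.14 and 4.77 CPM in untreated WT cells, a difference of -3.17 ± 0.39 (adjusted p = 1.07e-05). HMOX1, the inducible heme oxygenase, had 18.7 and 20.7 CPM in treated S5A cells, against 48.0 and 47.0 CPM in untreated S5A cells, and 71.2 and 99.1 CPM in treated WT cells, against 55.3 and 51.8 CPM in untreated WT cells. In both genes the 2 untreated groups lay close together and the treated groups lay on opposite sides of them. The difference for HMOX1 was -1.94 ± 0.22 (adjusted p = 3.91e-06). AJUBA, a LIM-domain scaffold protein (-1.08 ± 0.16), TANC2, a scaffold protein of synapses (-1.02 ± 0.13), and POU3F3, a POU-domain factor of neural development (-1.02 ± 0.19), moved the same way.

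Of 29 targets and inhibitors of BMP and Notch signalling, 16 were lower and 1 higher, with a median of -0.81. This and the counts that follow are to be read against 12.3% lower and 5.86% higher among all tested genes. The share called lower varied with expression level. In the 11287 genes averaging 5 CPM or more in Mock, untreated cells outside the comparison, 17.4% were lower and 4.94% higher. For every list, a share of lower members between 12.3% and 17.4% is therefore near that of other genes. The inhibitory SMAD gene SMAD6 had 22.8 and 21.9 CPM in treated S5A cells, against 188 and 202 CPM in untreated S5A cells. In treated WT cells it had 76.6 and 89.8 CPM, against 235 and 226 CPM in untreated WT cells, so that it fell in both lines and further in S5A (difference -1.66 ± 0.22, adjusted p = 1.91e-05). SMAD7, the other inhibitory SMAD, differed by -1.13 ± 0.20. The Notch effector HEY1 differed by -1.79 ± 0.13, and ID3 and ID4, BMP-driven inhibitors of bHLH factors, by -1.26 ± 0.23 and -1.23 ± 0.14. Of 44 genes with immediate early or otherwise short-lived mRNAs, 10 were lower and 3 higher (median -0.36). Among them ZFP36L2, a factor of mRNA decay, had 11.3 and 12.1 CPM in treated S5A cells, against 56.4 and 49.3 CPM in untreated S5A cells, and stayed at 55.5 and 61.8 CPM in treated WT cells, against 55.3 and 58.0 CPM in untreated WT cells. Of 20 feedback genes of ERK signalling, 4 were higher and 4 lower under TMM (median -0.46), 2 higher and 9 lower under mitochondrial scaling, and 1 higher and 10 lower under the authors' factors. The inhibitor SPRY1 differed by -1.37 ± 0.18 and PHLDA1 by 2.52 ± 0.32.

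**Figure D4:**
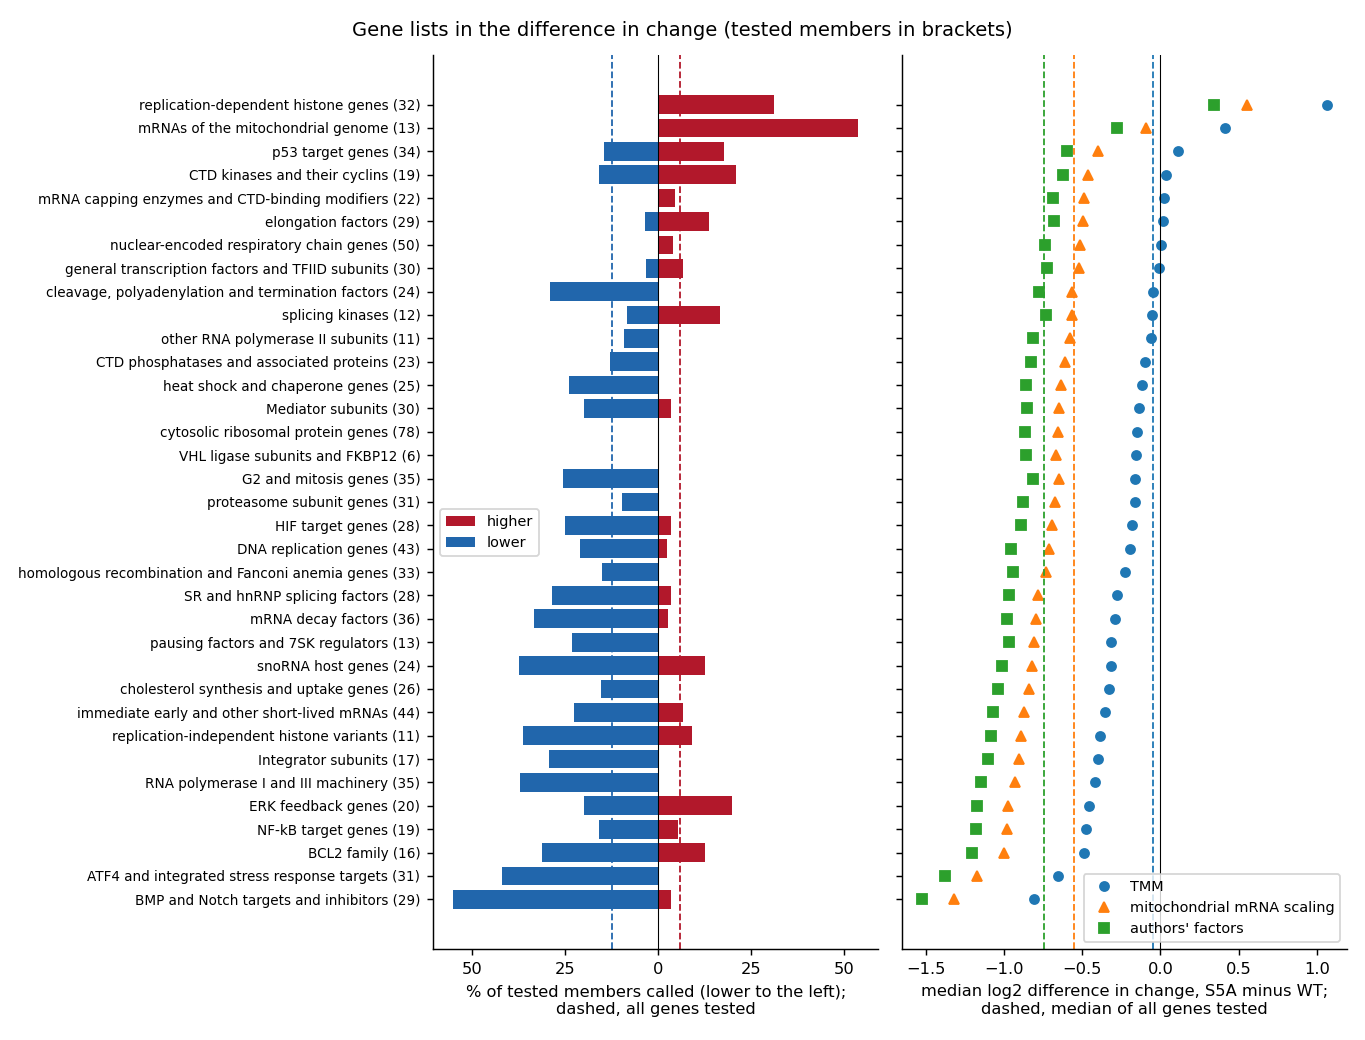
Left, share of tested members of each gene list called higher (red, to the right) or lower (blue, to the left), with the shares of all tested genes, 5.86% and 12.3%, dashed. Right, median log2 difference in change of each list under TMM, mitochondrial mRNA scaling and the authors' factors, with the median of all tested genes dashed; the order of lists is nearly the same under each scaling, and the replication-dependent histone genes stay above 0 in all.

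The genes of the transcription machinery are taken complex by complex, and their counts are to be read against 12.3% lower and 5.86% higher among all tested genes. In genes averaging 5 CPM or more in Mock these shares were 17.4% and 4.94%. Of the 11 other subunits of RNA polymerase II, POLR2H was lower (-0.60 ± 0.17) and 0 were higher, with a median of -0.06, and the POLR2H call was lost in 6 alternatives, with adjusted p from 0.0574 to 0.137. Of 19 CTD kinase and cyclin genes, 4 were higher and 3 lower. Under mitochondrial scaling, and also under the authors' factors, 0 of them were higher and 7 lower. CDK9, the kinase subunit of P-TEFb that phosphorylates the CTD and the pausing factors, had 36.0 and 33.7 CPM in treated S5A cells, against 70.1 and 72.0 CPM in untreated S5A cells. It had 63.6 and 72.5 CPM in treated WT cells, against 67.9 and 69.1 CPM in untreated WT cells, a difference of -1.02 ± 0.18 (adjusted p = 0.000382). CCNL1, a cyclin of the splicing-associated CDK11 kinases, went the other way (1.08 ± 0.27), although its call was lost under mitochondrial scaling (0.59, adjusted p = 0.0569) and under the authors' factors (0.43, adjusted p = 0.281). Of 23 genes of CTD phosphatases and their partners, 3 were lower and 0 higher, a share near that of all genes. CTDSP1, a small CTD phosphatase that acts on serine 5, was the furthest, at 10.88 and 11.03 CPM in treated S5A cells, against 42.2 and 39.4 CPM in untreated S5A cells, and 38.5 and 58.0 CPM in treated WT cells, against 53.8 and 51.6 CPM in untreated WT cells (difference -1.77 ± 0.26). Of 22 genes of capping enzymes and CTD-binding modifiers, 1 was higher and 0 lower (median 0.02). Under mitochondrial scaling 0 of the 22 were higher and 11 lower (median -0.49), and under the authors' factors 0 and 12 (median -0.69).

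Of 13 pausing and 7SK genes 3 were lower, among them JMJD6 (-0.88 ± 0.13), and of 29 elongation genes 1 was lower, PAF1 (-1.04 ± 0.22), a subunit of the PAF complex, while 4 were higher. Under mitochondrial scaling 0 elongation genes were higher and 14 lower, and under the authors' factors 0 and 15. Integrator, which cleaves nascent transcripts near promoters and forms small nuclear RNA ends, had 5 of 17 subunits lower and 0 higher (median -0.40). INTS3 had 58.7 and 62.2 CPM in treated S5A cells, against 133 and 134 CPM in untreated S5A cells, and 135 and 149 CPM in treated WT cells, against 129 and 125 CPM in untreated WT cells. The difference for INTS3 was -1.31 ± 0.15, and INTS14 (-0.83 ± 0.12) and INTS7 (-0.85 ± 0.18) were lower too. Of 24 cleavage, polyadenylation and termination genes 7 were lower and 0 higher: CSTF2T, a polyadenylation factor gene of 1 exon (-1.0 ± 0.12), TTF2, a termination factor (-0.87 ± 0.13), and CPSF7 (-0.63 ± 0.12) were among them. Of 30 Mediator genes 6 were lower and 1 higher, with MED11 (-1.85 ± 0.21), MED22 (-1.61 ± 0.24) and MED8 (-1.3 ± 0.14) among the lower ones. Of 30 general transcription factor and TFIID genes 2 were higher and 1 lower, GTF2E2 (-0.89 ± 0.16), a subunit of TFIIE, which had differed between the untreated lines by 0.57. Under mitochondrial scaling 0 of the 30 were higher and 12 lower, and under the authors' factors 0 and 15.

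RNA-processing lists also held called genes, to be read against 12.3% lower and 5.86% higher among all tested genes. In genes averaging 5 CPM or more in Mock these shares were 17.4% and 4.94%. Of 28 SR and hnRNP splicing factors 8 were lower and 1 higher (median -0.28). SRSF3 had 186 and 177 CPM in treated S5A cells, against 686 and 721 CPM in untreated S5A cells, and 566 and 501 CPM in treated WT cells, against 702 and 714 CPM in untreated WT cells (difference -1.55 ± 0.15). HNRNPDL (-1.46 ± 0.19) and HNRNPD (-1.31 ± 0.12), RNA-binding proteins that regulate splicing and mRNA stability, were lower. In all 3 the WT line fell too with edgeR, by less. The authors' deposited DESeq2 table called none of these WT falls (adjusted p from 0.512 to 0.999). CLK1, a kinase of SR proteins, was higher instead (1.11 ± 0.24): it had 157 and 165 CPM in treated S5A cells, against 59.0 and 54.1 CPM in untreated S5A cells, and 76.8 and 59.6 CPM in treated WT cells, against 49.7 and 53.9 CPM in untreated WT cells. Its call was lost with the authors' factors (0.44, adjusted p = 0.254), and the list of 12 splicing kinases to which it belongs had 2 higher and 1 lower. Of 36 mRNA decay genes 12 were lower and 1 higher, with EXOSC3 of the exosome (-1.18 ± 0.17) and CNOT9 of the deadenylase complex (-0.91 ± 0.12) among the lower ones. CNOT9 had differed between the untreated lines by -0.50. Host genes of small nucleolar RNAs were lower in 9 of 24 and higher in 3, SNHG4 by -1.38 ± 0.25. The strand setting makes host genes and their neighbours uncertain.

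Of 35 genes for the machinery of RNA polymerases I and III, which make ribosomal and transfer RNA, 13 were lower and 0 higher (median -0.42). Among the lower ones, POLR1G (-1.53 ± 0.22) encodes a subunit of RNA polymerase I and UBTF (-1.11 ± 0.16) the ribosomal DNA activator. In the cell cycle, 9 of 43 replication genes were lower and 1 higher, 5 of 33 genes of homologous recombination and the Fanconi pathway were lower and 0 higher, and 9 of 35 G2 and mitosis genes were lower and 0 higher, against 12.3% lower and 5.86% higher among all tested genes. The share for homologous recombination lay near that of all genes. POLD3 of DNA polymerase delta (-1.26 ± 0.16), the helicase subunit MCM3 (-0.86 ± 0.15) and the mitotic regulators CCNB1 (-1.11 ± 0.13), PLK1 (-1.12 ± 0.17) and AURKB (-1.41 ± 0.23) were lower. Of these 5, CCNB1 and PLK1 also fell in WT cells with edgeR, but not in the authors' deposited DESeq2 table (adjusted p = 0.999 for both).

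Targets of p53 were split, 6 of 34 higher and 5 lower (median 0.11, which is -0.40 and -0.60 with the other scalings). The phosphatase gene PPM1D, which ends the p53 response, differed by 1.17 ± 0.16, and the autophagy regulator TP53INP1 by 1.67 ± 0.33. TP53INP1 had 91.4 and 97.3 CPM in treated S5A cells, against 17.8 and 16.3 CPM in untreated S5A cells, and 35.17 and 24.99 CPM in treated WT cells, against 16.3 and 18.3 CPM in untreated WT cells, while the PPM1D call was lost with the authors' factors (0.48, adjusted p = 0.171). In the BCL2 family, 5 of 16 genes were lower and 2 higher. The survival gene BCL2L2 (-2.06 ± 0.19) and the pore-forming effector BAK1 (-1.58 ± 0.24), whose products act in opposite ways, were both lower, and BMF, an inhibitor of survival proteins, was higher (0.99 ± 0.16, lost with both other scalings, at 0.47 and 0.26). Of 28 HIF targets 7 were lower and 1 higher, including the repressor BHLHE40 (-1.69 ± 0.23) and the hexokinase HK2 (-0.94 ± 0.14), which had differed between the untreated lines by -0.47. Of 19 NF-kB targets 3 were lower, among them the inhibitor NFKBIA (-1.22 ± 0.18), and 1 was higher. Of 26 cholesterol genes 4 were lower and 0 higher, with the sterol sensor INSIG1 at -1.05 ± 0.20. For proteasome subunits the counts were 3 of 31 lower and 0 higher, and for the VHL ligase and FKBP12, through which dTAGV-1 and its tag act, 0 of 6 either way. Among all tested genes 12.3% were lower and 5.86% higher. The shares of lower NF-kB, cholesterol and proteasome genes lay near that of all tested genes, as did the share of higher NF-kB genes.

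Of the genes with the largest higher differences, many had a few CPM or less in untreated cells. PTGER3 (chromosome 1, 70852353 to 71047808, minus strand), a prostaglandin E receptor, had 31.64 and 34.99 CPM in treated S5A cells and 0.323 and 0.569 CPM in untreated S5A cells. It had 1.58 and 0.822 CPM in treated WT cells and 0.321 and 0.214 CPM in untreated WT cells, a difference of 4.16 ± 1.03 (adjusted p = 0.00748) that was not called without replicate 1 of untreated WT cells (adjusted p = 0.116). FUT3, a fucosyltransferase, differed by 3.88 ± 0.59 and reached 22.1 and 22.9 CPM in treated S5A cells, against 0.387 and 0.244 CPM in untreated S5A cells, with 1.92 and 2.46 CPM in treated WT cells, against 0.450 and 0.499 CPM in untreated WT cells. FUT3 shares sequence with its neighbour FUT6, so its reads are uncertain, and SSBP3-AS1 (3.13 ± 0.36) is an antisense gene with the same limit. TTN (chromosome 2, 178525989 to 178830802, minus strand), which encodes the muscle protein titin, had 95.1 and 93.1 CPM in treated S5A cells, against 21.9 and 21.4 CPM in untreated S5A cells. It had 21.42 and 14.99 CPM in treated WT cells, against 21.01 and 20.6 CPM in untreated WT cells (difference 2.32 ± 0.32, adjusted p = 3.2e-05). MYH11, a smooth muscle myosin heavy chain gene, differed by 2.26 ± 0.36, and HPX, a heme-binding plasma protein, by 2.43 ± 0.35. GNAT2 (2.43 ± 0.38), IFITM10 (2.51 ± 0.46), PLEKHA6 (2.13 ± 0.34), the p38 kinase gene MAPK13 (2.25 ± 0.29) and LGALS3BP (2.13 ± 0.39) were higher as well. Each of these was highest in both treated S5A libraries.

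Replication-dependent histone genes make mRNAs that normally end in a stem-loop and carry no poly(A) tail, so poly(A) libraries measure only their polyadenylated part. Of 32 tested members 10 were higher and 0 lower (5.86% and 12.3% of all genes), against 5 and 0 under mitochondrial scaling and 5 and 1 under the authors' factors. The median difference was 1.07 under TMM, 0.55 under mitochondrial scaling and 0.34 under the authors' factors. In the S5A line 29 of 32 rose, and in the WT line 14 did. H2AC6 had 24.2 and 26.0 CPM in treated S5A cells, against 3.55 and 3.25 CPM in untreated S5A cells, and 3.67 and 3.90 CPM in treated WT cells, against 2.83 and 2.57 CPM in untreated WT cells (difference 2.39 ± 0.24, adjusted p = 1.17e-06). H2BC21 (2.20 ± 0.32), H2BC11 (2.01 ± 0.27) and H2BC5 (1.6 ± 0.24) were higher, and so was H2BC12 (1.07 ± 0.23), which was lost with both other scalings at 0.54 and 0.31. H2BC21, H2BC5 and H2BC12 had also risen in WT cells with edgeR, by 1.44, 1.5 and 0.71. The authors' deposited DESeq2 table called none of these WT rises (adjusted p from 0.928 to 0.999). Replication-independent variants, whose mRNAs are polyadenylated, were lower in 4 of 11 and higher in 1: MACROH2A2 differed by -0.79 ± 0.15 and H3-3B by -0.50 ± 0.11. Histone genes share sequence, so reads of single members are uncertain.

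The promoters of 2 of these histone genes, 250 bases before the start in RefSeq GRCh38.p14, are given with TATAAA and CCAAT in capitals on either strand.
H2AC6, chr6:26123922-26124171, plus strand: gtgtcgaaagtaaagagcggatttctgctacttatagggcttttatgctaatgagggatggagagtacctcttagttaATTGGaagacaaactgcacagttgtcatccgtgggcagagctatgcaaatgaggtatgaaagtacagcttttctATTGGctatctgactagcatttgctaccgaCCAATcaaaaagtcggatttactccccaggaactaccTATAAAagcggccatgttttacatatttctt
H2BC21, chr1:149886683-149886932, minus strand: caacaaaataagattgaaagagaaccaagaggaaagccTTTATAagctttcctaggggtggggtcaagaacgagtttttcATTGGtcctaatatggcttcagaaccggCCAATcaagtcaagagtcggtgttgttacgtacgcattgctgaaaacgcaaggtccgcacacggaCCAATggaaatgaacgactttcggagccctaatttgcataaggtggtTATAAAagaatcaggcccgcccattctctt

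H2AC6 held 1 TATAAA and 3 CCAAT, and H2BC21 held 2 and 3. In the 13203 promoters the shares were 6.01% for TATAAA and 34.4% for CCAAT, and in the 361 genes at least 2-fold higher 11.1% and 35.5%. In the 848 genes at least 2-fold lower they were 4.95% and 32.2%. The differences between these shares were not tested.

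The mitochondrial genome is transcribed by its own polymerase. Of the 13 mRNAs 7 were higher and 0 lower under TMM (5.86% and 12.3% of all tested genes), with a median of 0.41. With the authors' factors the median was -0.27, and 0 were higher or lower. Mitochondrial scaling uses these same mRNAs and so says nothing about them. MT-ND5, a subunit gene of complex I, differed by 0.60 ± 0.12 under TMM and by -0.09 with the authors' factors. Nuclear genes of the respiratory chain had a median of 0.01 (2 of 50 higher, 0 lower) and cytosolic ribosomal protein genes one of -0.15 (0 of 78 called in either direction with edgeR and with DESeq2, and 0 at an unadjusted p under 0.05), against -0.04 for all genes. With mitochondrial scaling 54 of the 78 ribosomal protein genes were lower, and with the authors' factors 70.

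The difference also varied with gene length. In 11287 genes averaging 5 CPM or more in Mock, untreated cells of the series that are outside the comparison, 17.4% were lower and 4.94% higher, with a median of -0.14. Genes of 2 to 5 kb had a median of -0.48 and 31.9% were lower (n = 717), genes of 5 to 10 kb -0.37 and 30.3% (n = 1114), and genes of 50 to 100 kb -0.02 and 12.4% (n = 2041). For genes under 2 kb the median was -0.11 (n = 215). With GC correction the medians for 2 to 5 kb and 50 to 100 kb were -0.39 and -0.07, and without replicate 2 of treated WT cells -0.28 and -0.05. Without replicate 1 of treated WT cells they were -0.63 and 0.07. Within genes of 50% to 60% GC content, with all libraries, the medians for those lengths were -0.47 and -0.16. In genes of 2 to 5 kb the median change was -0.49 in S5A and 0.01 in WT cells. Genes of 2 exons had a median of -0.29, against -0.07 for genes of more than 20. By GC content the median ran from 0.07 under 40% GC to -0.54 above 65% with all libraries. The median change in these bins ran from -0.08 to -0.47 in S5A and from -0.16 to 0.10 in WT cells. With GC correction the median differences were -0.12 and -0.25. Without replicate 2 of treated WT cells they were -0.11 and -0.13, a comparison that leaves replicate 1, whose own log2 level shifted by -0.29 between 40% and 60% GC relative to the mean of all libraries. Without replicate 1 of treated WT cells they were 0.34 and -0.81, so the trend with GC content depended on which treated WT library was kept. Genes under 0.2 CPM in Mock cells had a median of 0.41, which was -0.28 with the authors' factors. The Mock level can differ widely from that of the compared lines: IRS4 was at 0.0994 CPM and HEY1 at 1.13 CPM in Mock, while PLEKHA6 was at 147.8 CPM. Antisense genes had one of 0.26 and lincRNA genes one of 0.18, against -0.10 for protein-coding genes. All of these are descriptions across genes, which are not replicates.

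**Figure D5:**
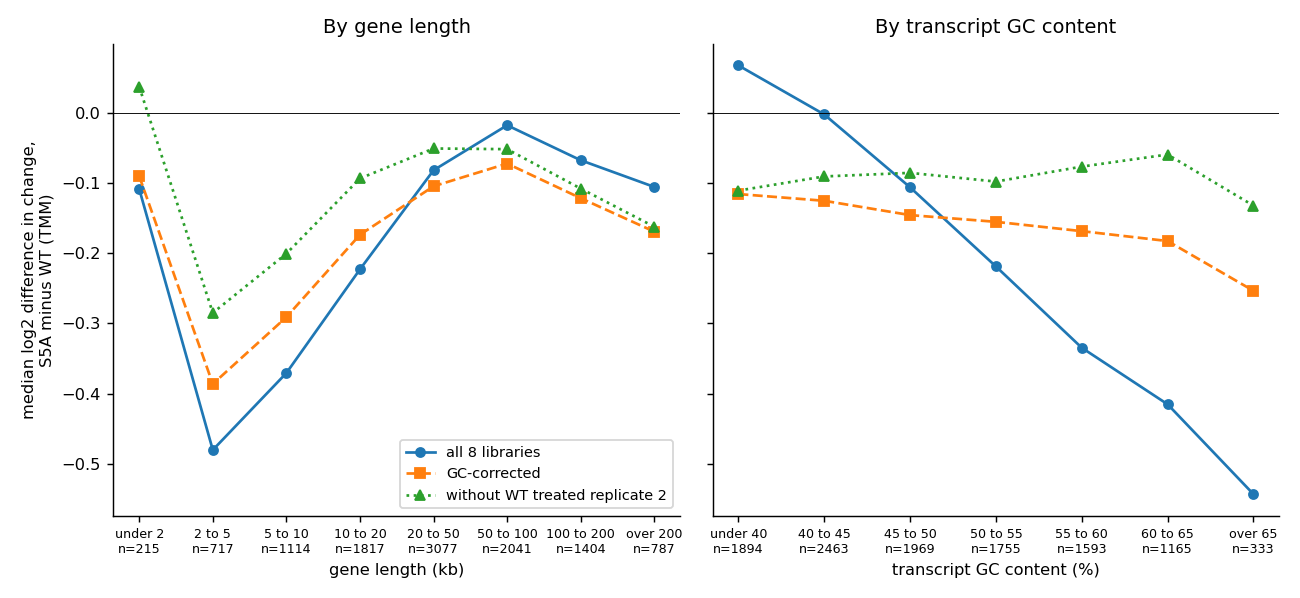
Median log2 difference in change, S5A minus WT (y axis), by gene length (left) and transcript GC content (right) in genes with at least 5 CPM in Mock cells, for all 8 libraries, with GC correction and without replicate 2 of treated WT cells, with the number of genes per bin under the axis. All 3 curves are lowest at 2 to 5 kb, while by GC content the curve without that library stays between -0.06 and -0.13.

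Among genes with the largest WT change, ELAPOR1 rose in both lines. It had 17.7 and 16.9 CPM in treated S5A cells, against 0.839 and 0.650 CPM in untreated S5A cells, and 7.75 and 6.92 CPM in treated WT cells, against 0.450 and 0.499 CPM in untreated WT cells. It rose by 4.50 ± 0.20 in S5A and by 3.92 ± 0.23 in WT, and the difference of 0.58 ± 0.39 was not called (adjusted p = 0.486), which does not show that the lines changed equally. It was -0.12 with the authors' factors.

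The summed levels of the marker lists below differed between treated S5A cells and the other groups, and some rested mainly on 1 gene. CD14 alone had 9.38 and 10.4 CPM in treated S5A cells, within the immune sum. IRS4 alone had 50.2 and 54.1 CPM in treated and 945 and 928 CPM in untreated S5A cells. The kidney or neuronal list was high in untreated cells of both lines, so its sum does not separate other cells from the lines' own. The summed level of 8 immune markers was 12.9 to 14.2 CPM in treated S5A cells, against 2.58 to 3.66 CPM in untreated S5A cells, and 6.33 to 6.98 CPM in treated WT cells, against 3.15 to 3.21 CPM in untreated WT cells. For 6 endothelial markers it was 11.4 to 12.1 CPM in treated S5A cells, against 2.03 to 2.91 CPM in untreated S5A cells, and 2.74 to 3.5 CPM in treated WT cells, against 2.44 to 3.06 CPM in untreated WT cells. For 7 fibroblast markers it was 20.5 to 21.1 CPM in treated S5A cells, against 24.2 to 28.3 CPM in untreated S5A cells, and 33.8 to 43.0 CPM in treated WT cells, against 28.4 to 31.6 CPM in untreated WT cells. The summed level of 10 markers of kidney HEK293 or neuronal cells, IRS4 among them, was 254 to 269.7 CPM in treated S5A cells, against 1296 to 1321 CPM in untreated S5A cells, and 983 to 1184 CPM in treated WT cells, against 1817 to 1909 CPM in untreated WT cells. Of these 10, 5 were lower and 0 higher, among them the neurofilament genes NEFM (-1.80 ± 0.21) and NEFL (-0.92 ± 0.13), which had differed between the untreated lines by -1.23 and 0.66. Of the tested markers, 1 of 3 immune, 1 of 5 endothelial and 1 of 22 lung and A549 genes were higher. Lower were 1 of 2 fibroblast and 2 of 22 lung and A549 genes. Among all tested genes 5.86% were higher and 12.3% lower. Under 1 CPM in all 8 libraries stayed 6 of the 8 immune, 2 of the 6 endothelial and 5 of the 7 fibroblast markers. The part of other cells in the results above was not tested.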

How the data were processed

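Poly(A) RNA-seq libraries, 2 per group, were compared as the difference (treated minus untreated S5A) minus (treated minus untreated WT). Per the submitters' processing notes, the tools were Trim Galore 0.6.2, STAR 2.7.3a, featureCounts 2.0.1 and DESeq2 1.24.0, and the builds hg38 and dm6; neither annotation nor strand setting is stated there or in the labels. The authors deposited raw read counts per gene and TPM values, which were not tested. The authors' deposited tables hold a base mean (a signal: library counts each divided by its own factor), plus log2 fold changes and p-values. The factors were solved from these base means. No fly genes were found in the tables used.

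Counts of all 30 libraries were fitted together with edgeR 4.0.16 (R 4.3.3) using TMM scaling, 1 coefficient per group and the quasi-likelihood test with robust estimation, which left 15 residual degrees of freedom. Genes were kept by filterByExpr with its defaults (19982 of 61578 genes), p-values were adjusted by Benjamini-Hochberg within each comparison, and SE is the log2 difference divided by the square root of F. CPM are counts divided by TMM-scaled library size. In simulated counts for 19982 genes, the test of the difference in change recovered 48% of 2-fold and 86% of 4-fold changes with 4 false calls. Changes were put into 100 genes per size in treated S5A cells only, with independent noise at the fitted dispersions. No GC shift and no group with a wider spread were simulated. The 4 false calls therefore do not measure false calls in these data. Gene positions, length and GC content came from GENCODE release 29 (56659 IDs matched) and promoters from RefSeq GRCh38.p14. Named genes were POLR2A and up to 14 genes in each direction with the largest called difference that averaged 5 CPM or more. Genes called oppositely in both lines and genes with the largest WT change were added. So were the members of each gene list with the smallest adjusted p, called or not. The text gives a selection of them. Genes, lists and comparisons were chosen with earlier results of these data known. Alternatives were DESeq2 1.42.0, 2 other scalings, other filters, the 8 libraries alone, GC correction, a replicate block, a direct comparison of treated groups and leaving out each library. Some genes are not reported here.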

Additional observations from a re-analysis of the deposited data

Results flagged for a closer look

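The difference in change was itself a test between the 2 lines, and 3630 genes passed it. Among these, 5 genes averaging 5 CPM or more were called in both lines in opposite directions, each falling in S5A and rising in WT cells. The log2 differences were -3.17 for SLC7A11, -1.94 for HMOX1, -1.02 for TANC2, -1.08 for AJUBA and -1.02 for POU3F3. These 5 differences kept their direction and call in every alternative run for the difference in change. The opposite calls within each line were not run under those alternatives, and in the authors' deposited table SLC7A11 alone of the 5 was called in WT cells (adjusted p = 0.00137, against 0.999 for the others).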

How the results depend on the processing

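The 3630 calls, 1170 higher and 2460 lower, with 692 and 1145 at least 2-fold, depended most on scaling. With mitochondrial mRNA scaling 7327 genes were called, 375 higher and 6952 lower, with 329 and 3855 at least 2-fold. With the authors' factors 8518 were called, 278 higher and 8240 lower, with 260 and 5752 at least 2-fold. GC correction gave 6887 calls, 2439 higher and 4448 lower. A direct comparison of the treated groups gave 8061, 3700 higher and 4361 lower, with 2034 at least 2-fold higher. Among genes averaging 5 CPM or more, 259 were at least 2-fold higher and 585 lower. Leaving out 1 library gave 2329 to 4367 calls, 722 to 1638 higher and 1601 to 2729 lower, with 459 to 909 and 755 to 1489 at least 2-fold. DESeq2 called 3357, the fit without a low-count filter 3471 and the 8 libraries alone 2888. The causes were not tested.

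The deviations of same-numbered treated and untreated libraries correlated at 0.02 in S5A and -0.424 in WT cells. In the other lines of the series the value ran from -0.673 (degron line) to 0.566 (S7A). A shift across a whole library, such as that with GC content, also enters this correlation. It therefore cannot show whether replicate numbers pair the libraries. With the replicate block 2631 genes were called, and with the replicate block and GC correction 6581, 2291 higher and 4290 lower. A crossed block, chosen after seeing the data, gave 3722.

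Of 99 genes followed across the alternatives, all kept direction and call with DESeq2, without a filter and with the block. POLR2A, not called in any of these fits, turned to -0.49 with mitochondrial scaling, -0.75 with the authors' factors, -0.01 without replicate 2 of treated S5A, -0.02 without replicate 1 of untreated S5A and -0.36 without replicate 1 of treated WT cells, with up to 0.62 (without replicate 2 of treated WT cells) over the fits that left out 1 library. With the authors' factors ELAPOR1 turned to -0.12 and MT-ND5 to -0.089. With 2 libraries per group, simulated 2-fold differences were recovered in 48% of genes, so smaller or uncalled differences are not shown to be absent.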
